A study of Mus musculus with 10 samples.

Results

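The chromatin around 4 genes that glucocorticoids are known to induce, Fkbp5, Dusp1, Sgk1 and Per1, was examined in 3T3-L1 cells during early fat cell differentiation. The loci were taken as fixed mm9 windows reaching about 100 kb to each side of each gene: chromosome 17 from 28435000 to 28725000 for Fkbp5 (290 kb), chromosome 17 from 26542000 to 26746000 for Dusp1 (204 kb), chromosome 10 from 21500000 to 21820000 for Sgk1 (320 kb) and chromosome 11 from 68808000 to 69024000 for Per1 (216 kb). DNase I hypersensitive (DHS) sites, stretches of open chromatin that the enzyme cuts often, were members if they overlapped a window by at least 1 bp. Footprints, short protected stretches inside such sites, were members if they lay inside a window. The 4 windows held 102 of the 129028 listed sites and 992 of the 329076 listed footprints. No site straddled a window's edge. The nearest sites outside lay 475 bp beyond the Fkbp5 window (5 footprints) and 3266 bp before the Sgk1 window (5 footprints), and those around Dusp1 and Per1 lay at least 12033 bp away. The closest member to any edge lay 2983 bp inside the Dusp1 window and held 1 footprint.

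3T3-L1 is a mouse fibroblast line that turns into fat cells when stimulated. Nuclei were taken 4 h after confluent cells had been given dexamethasone at 1 µM, 3-isobutyl-1-methylxanthine at 0.5 mM, insulin at 1 µg/mL and fetal calf serum at 10%. The 2 DNase samples of this group come from 1 library, sequenced further with single and with paired ends, and the authors merged both with its earlier reads before listing sites and footprints. The lists thus hold 1 pooled value per site, with no replicate, no time point before induction and no read depth, and no test between conditions could be made. Whether a site opened on induction was not measured in these lists. The 8 RNA samples of the study, taken at 0 h and 4 h from cells carrying either a scrambled control shRNA or one that targets C/EBPβ (4 groups of 2), were not analysed here. Marker genes of 3T3-L1 cells could not be measured in lists of regions.

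Dexamethasone is a synthetic glucocorticoid. It binds the glucocorticoid receptor, which enters the nucleus and attaches as a dimer to glucocorticoid response elements, made of a pair of inverted 6-base arms with a short spacer. 3-Isobutyl-1-methylxanthine blocks phosphodiesterases, so cyclic AMP rises and the factor CREB acts at cyclic AMP response elements. Fkbp5 encodes a co-chaperone that lowers the receptor's affinity for hormone and so closes a feedback loop. Dusp1 encodes a phosphatase that switches off MAP kinases. Sgk1 encodes a serine/threonine kinase of the phosphoinositide 3-kinase pathway that regulates ion transport. Per1 encodes a repressor of the circadian clock, and its transcription is known to respond to both glucocorticoids and cyclic AMP.

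The RefSeq promoter table (build GRCm38.p6) matched all 4 genes with 10 start sites: 6 for Sgk1, 2 for Per1 and 1 each for Dusp1 and Fkbp5. The 250 bases before each start were searched on both strands for the glucocorticoid arm (AGAACA or its reverse complement TGTTCT) and for the cyclic AMP core (TGACG or CGTCA), which also lies within the full cyclic AMP element. The 4 sequences below were chosen to show the full glucocorticoid pair, the full cyclic AMP element and the core in both Per1 promoters, with bases of either motif in capitals and the rest in lower case. They are Sgk1 promoter 5, numbered along the gene (chr10:21993640-21993889, plus strand), the Dusp1 promoter (chr17:26508473-26508722, minus strand), and Per1 promoters 1 and 2 (chr11:69098699-69098948 and chr11:69099902-69100151, plus strand).
Sgk1 promoter 5: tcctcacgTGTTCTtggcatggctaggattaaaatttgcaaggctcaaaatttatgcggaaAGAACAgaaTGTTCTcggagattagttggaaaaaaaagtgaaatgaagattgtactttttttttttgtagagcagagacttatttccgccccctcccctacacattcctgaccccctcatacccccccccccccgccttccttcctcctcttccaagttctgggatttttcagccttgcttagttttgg
Dusp1 promoter: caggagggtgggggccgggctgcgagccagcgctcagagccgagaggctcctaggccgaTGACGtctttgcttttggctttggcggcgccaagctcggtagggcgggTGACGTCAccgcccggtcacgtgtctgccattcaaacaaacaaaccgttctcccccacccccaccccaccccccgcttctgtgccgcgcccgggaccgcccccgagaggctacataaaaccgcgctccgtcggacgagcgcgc
Per1 promoter 1: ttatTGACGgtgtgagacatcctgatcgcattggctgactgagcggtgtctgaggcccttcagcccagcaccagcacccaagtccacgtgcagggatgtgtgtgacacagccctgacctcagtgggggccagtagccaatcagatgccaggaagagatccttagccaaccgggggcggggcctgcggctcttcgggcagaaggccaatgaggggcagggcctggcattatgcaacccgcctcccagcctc
Per1 promoter 2: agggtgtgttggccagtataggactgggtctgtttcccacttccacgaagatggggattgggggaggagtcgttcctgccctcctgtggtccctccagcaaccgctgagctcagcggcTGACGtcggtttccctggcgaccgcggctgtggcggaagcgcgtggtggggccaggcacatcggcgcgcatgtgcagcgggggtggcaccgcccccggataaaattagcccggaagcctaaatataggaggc

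Sgk1 promoter 5 held the full inverted pair, AGAACA and TGTTCT separated by 3 bases, with its first base 189 bp before the start site. A further arm began 242 bp before the start. The full pair was present in 3 of the 32851 promoters of the table, or 0.00913%, and the other two belonged to Acnat2 and Gm35041 (named after the values were seen). With 1 mismatch allowed, it was found in 0.14% of all promoters and still in 1 of the 10 here. A single arm was found in 3 of the 10 promoters, promoters 1, 4 and 5 of Sgk1, against 16.1% of all promoters, and in 0 of the 4 promoters of Fkbp5, Dusp1 and Per1. Absence says only that these letters are not in this window.

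The Dusp1 promoter held the full palindromic cyclic AMP element, TGACGTCA, with its first base 143 bp before the start, and a separate core at 191 bp. The full element was present in 1.55% of all promoters. The core, counted also where it is part of the full element, was found in 4 of the 10 promoters (Dusp1, both of Per1 and promoter 2 of Sgk1), against 17.8% of all promoters. In the Per1 promoters it began 246 bp before the first start site and 132 bp before the second. The E-box CACGTG, the element that clock activators bind, was present in 4 of the 10 (Fkbp5, Dusp1, promoter 1 of Per1 and promoter 5 of Sgk1), against 6.02% of all promoters. In Sgk1 promoter 5 it began 246 bp before the start and shared its last bases with the arm at 242 bp.

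The other motifs searched were those of general promoter factors and of factors active early in fat cell differentiation. The C/EBP element, TTGCNNAA, was found in 2 of the 10 promoters (promoter 1 of Per1 and promoter 2 of Sgk1), against 9.56% of all promoters, and the AP-1 element, TGANTCA, in 0 of the 10, against 6.75%. The SP1 box GGGCGG was found in 6 of the 10 (32.7% of all), the CCAAT box in 5 (33.8%) and TATAAA in 2, promoters 4 and 6 of Sgk1 (12.4%). The Sgk1 promoters differed in composition: promoter 6 was 70.4% G and C, whereas promoters 1 to 5 held 43.6 to 48.4%, against a median of 52.4% over the table. The single Fkbp5 promoter was 68% G and C and held 3 SP1 boxes. The Dusp1 promoter was 68.4% G and C, and the Per1 promoters were 62% and 64%. For every motif, including the cyclic AMP core and the E-box, the share over all promoters was not matched for G and C content. Whether composition accounts for any of the motif counts was not tested.

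For comparison, 14 other genes known to respond to glucocorticoids were listed, of which 12 were in the promoter table with 16 start sites. The list was Tsc22d3, Klf9, Errfi1, Mt1, Mt2, Nfkbia, Ddit4, Tat, Pck1, Lcn2, Bcl6 and Pdk4, with Zbtb16 and Cebpd unmatched. A glucocorticoid arm was found in 2 of the 16 promoters (12.5%, against 16.1% of all promoters), those of Bcl6 and Tsc22d3, and the full pair in 0. The cyclic AMP core was found in 6 of the 16 (37.5%, against 17.8% of all promoters). These were 1 each in Bcl6, Errfi1, Klf9, Mt1, Pck1 and Tsc22d3. The full cyclic AMP element was found in 1 (6.25%, against 1.55% of all promoters), that of Errfi1. The promoter windows are on another build than the footprints, so no match was placed inside or outside a footprint.

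Open chromatin in the 4 loci was dense in footprints. A footprint was present in 94 of the 102 sites, or 92.2% (95% Wilson interval 85.3 to 96.0%, counting error only), against 45.4% of all listed sites. All 26 sites of the Per1 locus held one, as did 32 of 33 at Fkbp5 (97.0%), 17 of 19 at Dusp1 (89.5%) and 19 of 24 at Sgk1 (79.2%). On their own chromosomes the share was 60.1% for chromosome 11 (Per1), 51.4% for chromosome 17 (Fkbp5 and Dusp1) and 45.5% for chromosome 10 (Sgk1). Sites with 10 or more footprints numbered 29 (28.4%), against 7.88% of all sites: 13 at Per1, 10 at Fkbp5, 4 at Dusp1 and 2 at Sgk1. Sites of a locus share the library and the neighbourhood and are not independent, so these shares are a description with no test.

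**Figure D1:**
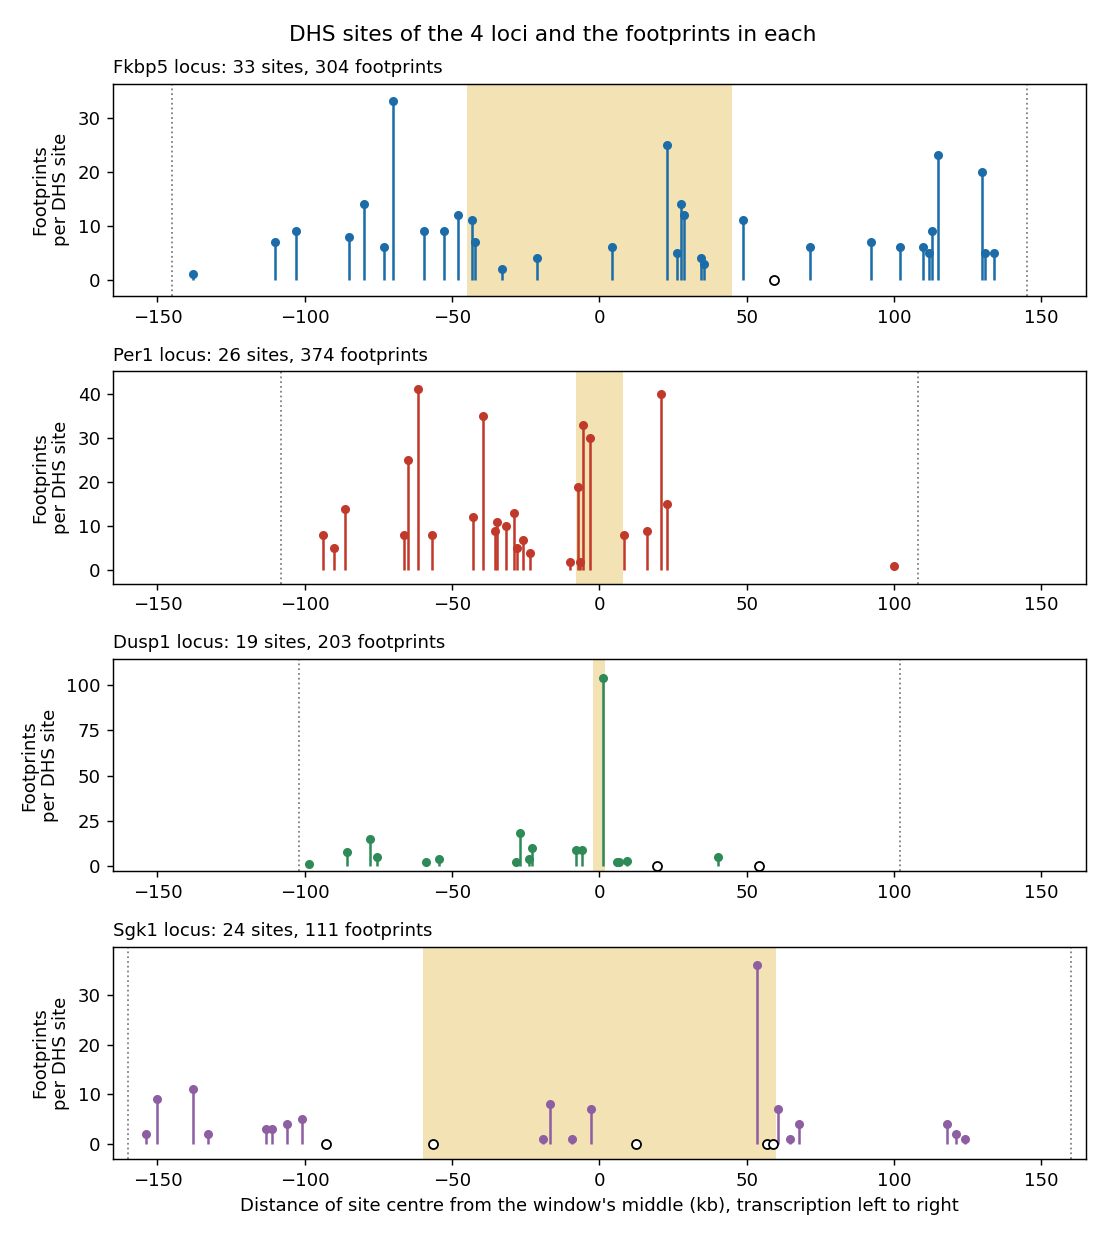
Footprints per DHS site (vertical axis) against the distance of the site's centre from the window's middle in kb (horizontal axis, direction of transcription from left to right), 1 panel per locus with its own vertical scale. Shading marks the approximate gene, dotted lines the window's edges and open circles the 8 sites without a footprint. The tallest line is the Dusp1 site with 104 footprints, and the Per1 locus is empty over most of its downstream flank.

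The member sites were also wider than the typical site. Their median width was 871 bp at Fkbp5, 746 bp at Per1, 681 bp at Dusp1 and 617 bp at Sgk1, against 532 bp over the whole list. Since wider sites hold more footprints, the shares were compared within bands of width. Of the 76 member sites of 500 to 1500 bp, 72 (94.7%) held a footprint, against 69.7% of all sites in that band. The mean was 7.70 footprints per site against 3.58. By locus this mean was 10.6 at Per1, 8.85 at Fkbp5, 7 at Dusp1 and 3.61 at Sgk1, so Sgk1 was near the background. Of the 16 member sites under 500 bp, 12 (75%) held a footprint, against 13.6%. All 10 member sites over 1500 bp held footprints, as did 98.2% of all sites that wide, so there the share is near the background. Their density was 12.5 footprints per kb against 8.28 per kb. By locus it was 15.8 at Fkbp5, 15.7 at Per1, 12 in the single Dusp1 site and 6.29 at Sgk1. Sgk1 thus lay below the density of all sites that wide.

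The 992 footprints compared with 527 predicted from the widths of the 102 sites, taking for each site the mean of its width class, with 50 classes over the whole list. The observed number was 1.88 times the predicted one (95% Poisson interval 1.77 to 2, counting error only, with footprints treated as independent). The ratio was 2.48 at Dusp1 (2.15 to 2.85), 2.15 at Per1 (1.94 to 2.38), 1.66 at Fkbp5 (1.48 to 1.86) and 1.26 at Sgk1 (1.04 to 1.52). The intervals of Dusp1 and Per1 overlap, as do those of Fkbp5 and Sgk1 by a little, whereas those of Per1 and Fkbp5 do not overlap. Footprints cluster within sites and come from 1 pooled library, so this overlap is no test between loci. In all, 83 of the 102 sites held more footprints than predicted: 26 of 26 at Per1, 28 of 33 at Fkbp5, 16 of 19 at Dusp1 and 13 of 24 at Sgk1. Over the whole list, 38642 of the 129028 sites did so. By chromosome the numbers were 2449 of 6074 on chromosome 11, 1909 of 5423 on chromosome 17 and 1941 of 6440 on chromosome 10. The widest class starts at 1793 bp, so the prediction is coarse for the widest sites of Dusp1 (8649 bp) and Sgk1 (5463 bp). Without its widest site the Dusp1 ratio fell to 1.60, and the Sgk1 ratio to 1.1. With the stronger 50% of footprints alone the Sgk1 ratio was 0.789, below the prediction. Read depth is unknown.

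**Figure D2:**
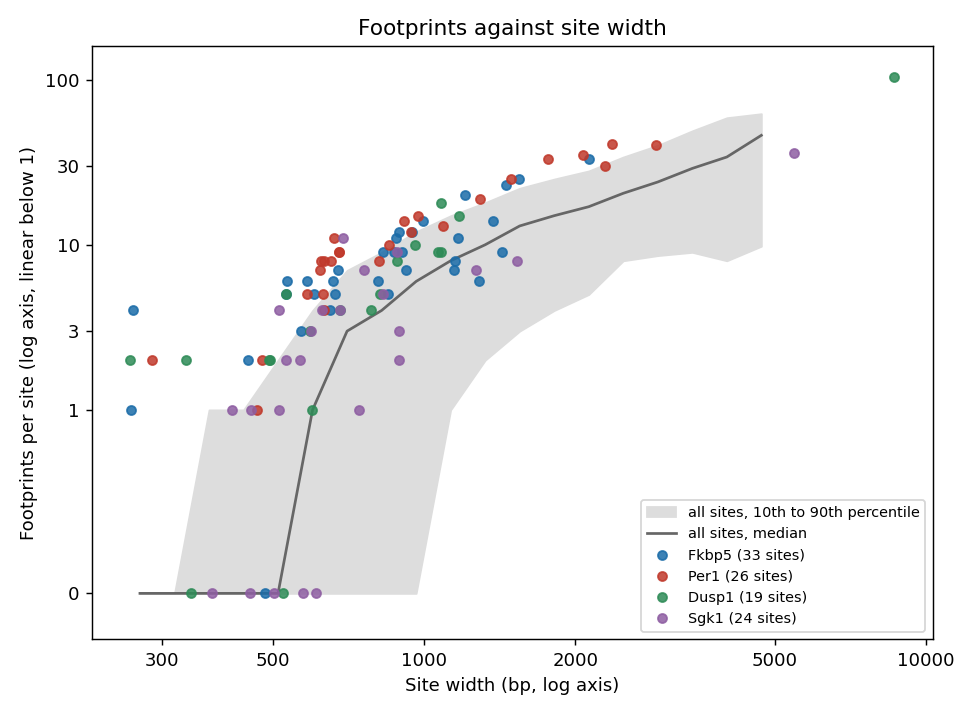
Footprints per site (vertical axis, logarithmic above 1 and linear below) against site width in bp (horizontal log axis). Each point is 1 of the 102 member sites, the line is the median over all listed sites and the grey band runs from their 10th to their 90th percentile, drawn for width bins of at least 20 sites. All Per1 points lie above the median line, whereas Sgk1 points lie on both sides of the median line.

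**Figure D3:**
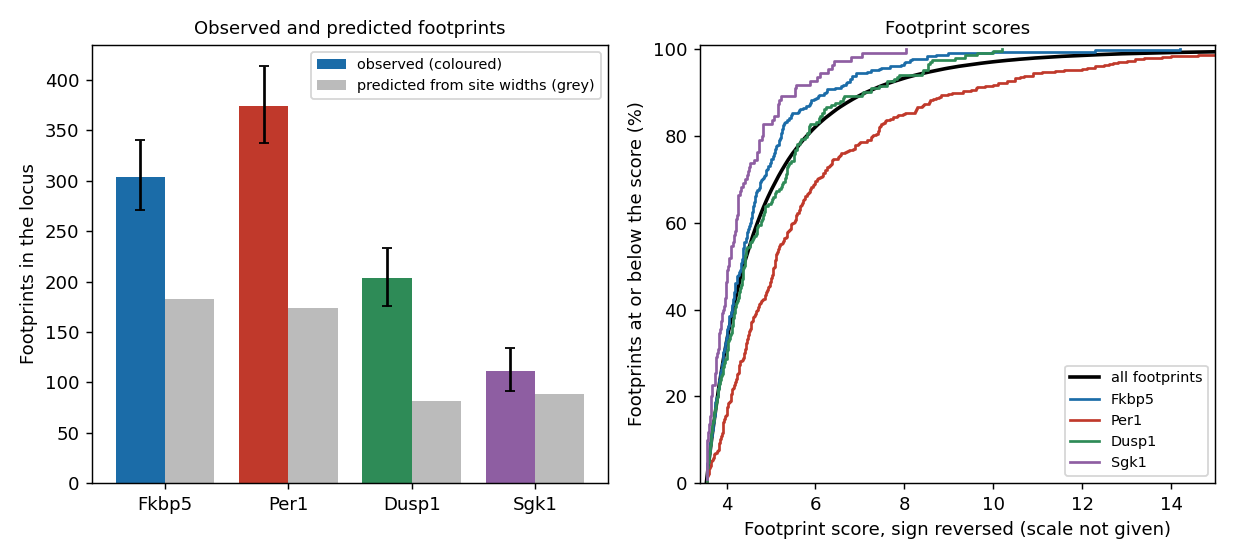
Left, footprints per locus (coloured bars, with exact 95% Poisson intervals as error bars) beside the number predicted from site widths (grey bars). Right, share of footprints in percent at or below a score, with the sign reversed so that stronger footprints lie to the right, cut at 15 for display. The Per1 curve lies to the right of the curve for all footprints and the Sgk1 curve to its left.

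As a background for the windows, the genome was cut end to end into pieces of the same length. The 33 sites of the Fkbp5 window compared with a median of 14 per 290 kb piece, and 1.28% of pieces held as many or more. The 26 sites at Per1 compared with a median of 10, reached by 1.44% of pieces, and the 19 at Dusp1 with a median of 10, reached by 6.04%. The 24 sites at Sgk1 compared with a median of 15 and were reached by 13.3% of pieces. For footprints the shares of pieces with as many or more were 0.0755% at Per1, 0.304% at Fkbp5, 0.467% at Dusp1 and 9.80% at Sgk1. The pieces include stretches without genes and the windows are centred on a gene, so the percentages describe the windows and are no test.

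Gene positions on mm9 were not used here, so each gene was placed as its window less 100 kb on each side. This interval exceeds the RefSeq gene length by 1.12 kb (Dusp1) to 2.60 kb (Fkbp5), so its ends are known to a few kb only. The windows also hold other genes. On GRCm38 the same spans contain 10 protein-coding neighbours of Per1 (upstream Pfas, Ctc1, Aurkb, Borcs6, Tmem107 and Vamp2, downstream Hes7, Aloxe3, Alox12b and Alox8) and 18 transfer RNA genes. Fkbp5 has 9 (upstream Armc12, Clpsl2, Clps and Lhfpl5, downstream Ppard, Fance, Rpl10a, Tead3 and Tulp1), Dusp1 has 2 (upstream Ergic1, downstream Neurl1b) and Sgk1 has 1 (4930444G20Rik, downstream). No site was assigned to a neighbour or to a member gene beyond its position.

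Fkbp5 combined the largest number of sites with an even spread. Of its 304 footprints, 108 lay upstream in 10 sites, 93 within the gene interval in 11 sites and 103 downstream in 12 sites. The top site held 10.9% of the locus's footprints. It spanned 2127 bp upstream of the gene (chromosome 17, 28648827 to 28650953), 23826 bp before the promoter-side end, and held 33 footprints, or 15.5 per kb. Next came an intragenic site of 1544 bp (28556447 to 28557990) with 25 footprints and a site of 1459 bp beyond the gene's far end (28464389 to 28465847) with 23.

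Within the gene, open chromatin gathered near the promoter end and in the later part of the transcribed stretch. The site nearest the far end of the 90 kb interval lay 9266 bp short of that end. A group of 4 sites spanning 7.17 kb (28550825 to 28557990), 67.0 to 74.2 kb into the gene, held 56 footprints, or 18.4% of the locus, and a pair of sites 79.4 to 80.7 kb into the gene held 7. Introns of Fkbp5 are known for hormone-bound enhancers, and whether these sites are such enhancers was not tested. Near the promoter end, a site of 878 bp (28622752 to 28623629) lay 1371 bp inside the interval and held 11 footprints, and a neighbour of 1149 bp (28621517 to 28622665) held 7. Between these groups the sites were sparse: a site 48903 bp into the gene held 6 footprints, 1 at 23702 bp held 4 and 1 at 11830 bp held 2. The single site of the locus without a footprint was 482 bp wide (28520499 to 28520980) and lay downstream.

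The strongest Fkbp5 footprints lay far from the gene. The deposited score is negative throughout, and more negative was read as stronger. The score of -14.2 at 28450291 to 28450317 (27 bp) was the strongest finite one at this locus, and 0.772% of all finite footprints scored as strongly. It lay in a downstream site of 1204 bp with 20 footprints (28449595 to 28450798), which also held the next ones, at -12.3 and -9.97. That site lies 84202 bp beyond the gene's far end. The other Fkbp5 sites reached at most -8.72.

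At Dusp1, 1 site held most of the footprints. It ran over 8649 bp (chromosome 17, 26638318 to 26646966) and covered the whole 4 kb gene interval, from 966 bp before its promoter-side end to 7683 bp downstream of that end. Its 104 footprints were 51.2% of the locus, at 12 per kb, and 23.9% of its sequence lay in footprints. In the whole list 9 sites were at least as wide and 10 held at least as many footprints, this one included in both. Width-class prediction is coarse here, since the widest class starts at 1793 bp. Among the 41 sites over 5000 bp the median density was 10.2 per kb, and 16 of them, this one included, were at least as dense. Its density was thus within the range of sites of that size, and what set it apart was its width.

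Protection within the Dusp1 site was uneven along the direction of transcription. Cut into 3 equal parts, it held 46 footprints with a median score of -5.17 on the promoter side, 31 with -4.30 in the middle and 27 with -4.02 at the far side. The strongest footprint of the site (-10, 26645544 to 26645567, 24 bp) lay 1411 bp from the promoter-side edge, and the next (-9.63) lay at 26645379 to 26645405. In steps of 1 kb from the low-coordinate edge, kb 8 held 25 footprints, the most of any, and kb 1 and 5 held 6 each. The last step, the promoter-side end, is shorter than 1 kb and held 5, the fewest. The longest stretch without a footprint was 335 bp (26641871 to 26642205). The promoter sequence with the cyclic AMP element shown above belongs to the promoter side of this gene, and its place within the mm9 site was not determined.

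The flanks of Dusp1 differed in their number of sites. Leaving out the broad site, 12 upstream sites held 87 footprints at 8.74 per kb, and 6 downstream sites held 12 at 4.37 per kb. Relative to the number predicted from site width the order was the opposite, with a ratio of 1.5 upstream and 3.13 downstream, where 3.83 were predicted. Of the 104 footprints in the broad site, 12 lay upstream of the gene interval, 51 inside it and 41 downstream, so by position 99 footprints of the locus lay upstream and 53 downstream. The next sites by footprints were both upstream, 1 of 1082 bp with 18 (26670483 to 26671564) and 1 of 1172 bp with 15 (26721108 to 26722279). The second of these held the strongest finite footprint of the locus, -10.2 at 26721570 to 26721599. Both sites without a footprint were downstream, the wider being 523 bp (26589474 to 26589996). A footprint of 13 bp at 26702802 to 26702814 has the score -Inf, a value without a usable size that 496 footprints of the list share. It lay in an upstream site of 335 bp with 2 footprints.

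Sgk1 was the sparsest of the 4 loci. Its 24 sites held 111 footprints, 5.20 per kb of site sequence, against 13.7 at Per1, 10.2 at Fkbp5, 9.51 at Dusp1 and 4.08 over the whole list. Chromosome 10 as a whole held 4.40 per kb. Footprints covered 10.4% of its site sequence, against 8.19% in the whole list and 25.9% at Per1. Of the 8 member sites without a footprint, 5 lay here. The widest of these was 608 bp (chromosome 10, 21716598 to 21717205), inside the gene interval.

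A single broad site stood out within the Sgk1 gene. It spanned 5463 bp (21710837 to 21716299) and held 36 footprints, 32.4% of the locus, at 6.59 per kb. Of the 41 sites over 5000 bp, 32 were at least as dense, so this site was among the sparser ones of its size. It lay 110836 to 116299 bp into the gene interval. On GRCm38 Sgk1 start sites 4, 5 and 6 lie 110039, 111706 and 112482 bp downstream of start site 1, and start sites 2 and 3 lie 96488 and 103920 bp downstream of it. These distances come from different builds and the interval's start is approximate, so they are set side by side only. Start site 5 is the one whose promoter holds the full glucocorticoid pair.

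Footprints in the broad Sgk1 site were spread thinly and rose in number along the gene, with 8, 12 and 16 in 3 successive equal parts. A stretch of 639 bp within it (21711979 to 21712617) held no footprint. Its strongest footprint scored -6.81 (21714435 to 21714460, 26 bp). The next sites by footprints were an upstream one of 690 bp with 11 (21521253 to 21521942) and another upstream one of 885 bp with 9 (21509768 to 21510652). The first of these held the strongest finite footprint of the locus, -8.03 at 21521554 to 21521572, a value that 6.64% of all finite footprints reached.

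Little open chromatin was listed near the far upstream end of Sgk1. No site lay within 2 kb of the interval's start, and the nearest, 3442 bp into it, was 378 bp wide and held 0 footprints. At the other end, a site of 1269 bp (21719923 to 21721191) crossed the interval's end and held 7 footprints, all weak (strongest -3.98, where the weakest score in the list is -3.54). A site of 450 bp beside it (21718761 to 21719210) held 0. A footprint of 9 bp at 21783944 to 21783952, alone in a downstream site of 743 bp, has the score -Inf.

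Per1 had the most footprints and the strongest finite scores. Its 26 sites held 374 footprints at 13.7 per kb. The median score was -5.08, against -4.49 over the 4 loci and -4.38 over the list, and 71.1% of its footprints were in the stronger part of the list split at the median. At Dusp1 that share was 50.5%, at Fkbp5 45.7% and at Sgk1 31.8%. Scores of -10 or stronger belonged to 32 Per1 footprints (8.56%), against 3.09% of the list and 3 at Dusp1, 2 at Fkbp5 and 1 at Sgk1, where the counts of Dusp1 and Sgk1 each include 1 at -Inf. Chromosome 11 as a whole had a median score of -4.44 and 5.37 footprints per kb, lower than the Per1 window on both measures.

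The promoter end of Per1 lay in a run of open sites. A group of 5 sites spanning 8.08 kb (68905841 to 68913918) began 2.16 kb before the interval's start and ended 5.92 kb into the gene. It held 86 footprints, 23% of the locus. The outermost site, 475 bp wide and 1685 bp before the start, held 2. The site over the start itself (68907941 to 68909230, 1290 bp) held 19 footprints with a median score of -9.82, the strongest median of finite scores among the member sites that have one. A site of 287 bp (68909231 to 68909517) adjoined it without a gap and held 2.

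The following site of this run (68909727 to 68911493, 1767 bp) held 33 footprints at 18.7 per kb, the highest density among the members over 1500 bp. Its strongest footprint, -17.4 at 68910561 to 68910582 (22 bp), was the strongest finite one of the 4 loci, and 0.400% of the list scored as strongly. Another at -15.7 lay close by, at 68910612 to 68910641. The last site of the run (68911622 to 68913918, 2297 bp) held 30 footprints. On GRCm38 the Per1 start sites lie 1203 bp apart, and both promoters carry the cyclic AMP core shown above.

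The Per1 locus had further groups outside the gene. The most footprints in 1 site, 41, were in a site of 2364 bp upstream (68853247 to 68855610), followed by 40 in a site of 2897 bp downstream (68935496 to 68938392) and 35 in a site of 2078 bp upstream (68875578 to 68877655). A chain of 9 upstream sites from 68872575 to 68892824 (20.2 kb) held 106 footprints, 28.3% of the locus. It included a site of 1089 bp (68886421 to 68887509) with 13 footprints, a median score of -8.43 and the locus's next strongest footprint after that at -17.4, -16.8 at 68886810 to 68886822 (13 bp). Just past the gene's far end, at 211 bp, a site of 622 bp (68924212 to 68924833) held 8 footprints. Further downstream no site was listed for 76.5 kb (68939463 to 69015962), against longest gaps between neighbouring sites of 50.2 kb at Sgk1, 26.7 kb at Fkbp5 and 25.2 kb at Dusp1. These gaps leave out the stretch from a window's edge to its first or last site, which reached 47473 bp at the downstream edge of the Dusp1 window.

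**Figure D4:**
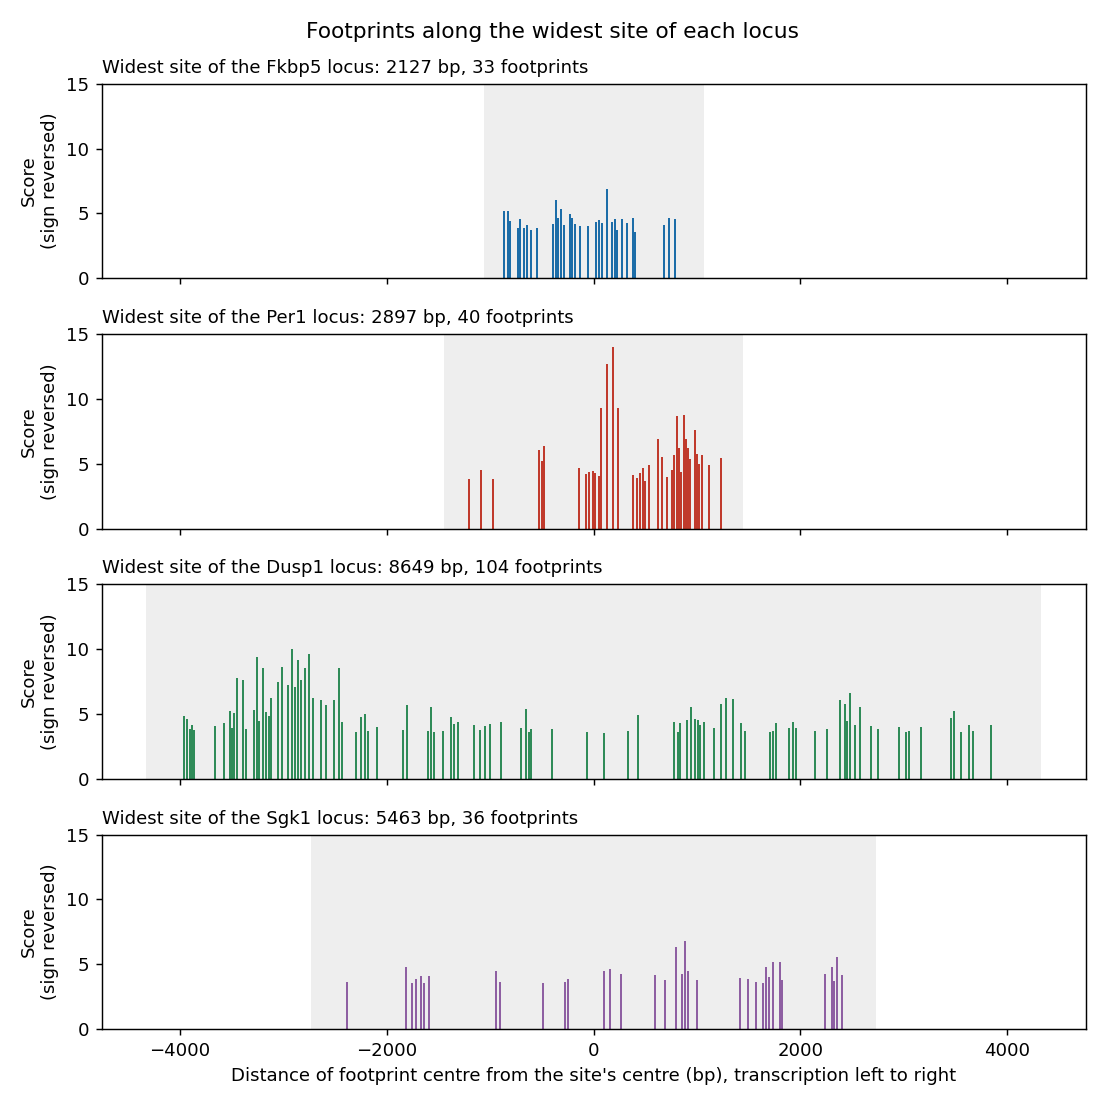
Footprints along the widest site of each locus. The horizontal axis gives each footprint's position in bp relative to the middle of its site, with transcription from left to right. The height of each line is the deposited score with its sign reversed (scale not given), and shading marks the site. The Dusp1 site shows its tallest and most crowded lines toward the promoter side, the Per1 site has its tallest lines near its middle, and the Sgk1 site has low lines throughout.

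Single footprints of the 4 loci covered the same range of widths as the whole list, with somewhat more short ones. Their widths ran from 8 to 30 bp with a median of 19 bp, against 21 bp over the list, and 78 of the 992 (7.86%) were at the 30 bp limit, against 11.6% of the list. Widths of 8 to 14 bp made up 34.1% (29.4% of the list) and widths of 23 to 30 bp made up 39.2% (43.9% of the list). At Per1 the median score was -4.65 for 8 to 14 bp and -5.66 for 23 to 30 bp, whereas at Sgk1 the medians were -4.08 and -4. Neighbouring footprints of a site were a median of 15 bp apart at Per1, 21 bp at Fkbp5, 24 bp at Dusp1 and 27.5 bp at Sgk1, against 20 bp over the list.

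Footprints lay toward the middle of sites in all 4 loci, least so at Dusp1. The inner 50% of a site's length held 80.3% of the footprints at Fkbp5, 75.4% at Per1, 72.1% at Sgk1 and 63.5% at Dusp1, by footprint centre, against 83.1% in the list. In the broad Dusp1 site the first footprints lay 480 bp and 353 bp from its edges, and in the broad Sgk1 site 340 and 323 bp.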

How the data were processed

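The deposited lists give DHS sites and footprints from 3T3-L1 nuclei 4 h after induction, on mm9 per the submitters' processing notes, which name HOMER without a version. Per the labels, the authors pooled all runs of 1 library before these calls. The site caller, footprint caller and read depth were not given in the sources used here. In the footprint list, the column headed p-value per the file headers was used as a score for ranking, since its values are all negative. Positions are 1-based, with BED starts raised by 1 (BED form was assumed).

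Footprints were given to the site that holds them in full. Predicted numbers are the mean footprints per site in 50 equal classes of width. Genome pieces were laid end to end between the outermost sites of each chromosome. Groups of sites were joined at 3000 bp or less. Motifs were searched in RefSeq promoters (GRCm38.p6), in the 250 bases before the start. Only the assignment of footprints to sites, the width-class prediction and the merging of close footprints were tested, on simulated or hand-made data. In each window, the 3 sites with the most footprints, the widest empty site, sites within 2 kb of the gene interval's ends, the strongest finite footprint and those at -Inf are named, other regions having been chosen after their values were seen. Members and lists were chosen with earlier results of these data known. Python 3.11.15, numpy 2.4.6, pandas 2.3.3 and scipy 1.17.1 were used.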

Additional observations from a re-analysis of the deposited data

How the results depend on the processing

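No paired analysis was possible because the sites and footprints come from 1 pooled library and no RNA values were used. Read depth, which limits the number of footprints that can be called, is unknown. Sites, footprints, ratios to prediction, genome pieces and the promoter count were recomputed under 11 alternatives, which gave 60 values. Of these, 15 moved past the limit set for their kind and 45 did not. The 45 include the counts of sites fully inside the windows, which could not change because no site straddled an edge. They also include the promoter count with 1 mismatch allowed, which could only rise. The limit was 1.5 times for counts of sites and footprints, so a count within it can still differ by more than counting error (Per1 footprints fell from 374 to 266 with the stronger 50%), and the 95% counting interval for ratios and shares. With the windows cut by 50 kb on each side, Dusp1 kept 12 sites with a ratio of 2.98 and Sgk1 kept 15 sites. Among the wider 50% of sites, 97.5% of members held a footprint. With the stronger 50% of footprints alone, 72.5% of members held one. The share of all listed sites under either of these 2 cuts is not given here. The 45.4% of the uncut list is therefore not a background for them. The footprints were then 139 at Fkbp5, 102 at Dusp1 and 35 at Sgk1, and the ratios 1.4 at Fkbp5, 2.84 at Per1 and 0.789 at Sgk1, so Sgk1 went from above to below its prediction. Without the widest site of each locus, Dusp1 had 99 footprints and a ratio of 1.60. In sites of 500 to 1500 bp alone, the ratio was 2.38 at Per1 and 1.51 at Dusp1. This width range, and prediction within the own chromosome, which moved no ratio beyond its counting error, were chosen after the data were seen. For the values that moved, the cause was not tested beyond what each alternative leaves out.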
